A study of Mus musculus with 4 samples.

Results

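Transcripts of 30 genes of the kinetochore, the centromere and the spindle checkpoint were followed in mouse heart. The genes were given by symbol, and each symbol matched 1 of the 54752 gene identifiers in the deposited count table, of which 26469 had at least 1 count. The libraries were made from hearts of postnatal day 14 (P14), 2 labelled wild type and 2 labelled Carm1 mutant, and the series text calls the hearts neonatal. Carm1 encodes an arginine methyltransferase that acts on histones and transcriptional coactivators. The strain, the sex, the Carm1 allele and any Cre or promoter behind it, and whether animals were pooled, were not given in the sources used here. No label ties a library to an animal of its own, so each p-value below rests on the spread among these 4 libraries, which may be technical. In CPM, read counts brought to a common library size with TMM factors, Carm1 was at 45.9 and 52.4 in the wild-type libraries and at 35.8 and 31.8 in the others (log2 fold change −0.54, SE 0.19, edgeR FDR 0.114). That difference did not pass the test, so the second group is called mutant-labelled. Xist counts were 12 and 15 in wild type against 8116 and 3921, and 4 Y-linked genes together had 1769 and 2236 counts against 7 and 0. Genotype label and sex therefore cannot be told apart in any difference below.

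The kinetochore is the protein assembly that joins a chromosome to spindle microtubules in mitosis. It is built on centromeric nucleosomes that contain the histone variant CENP-A. An inner layer of CENP proteins binds this chromatin, and an outer layer made of the KNL1, MIS12 and NDC80 complexes holds the microtubule. Kinetochores without a microtubule recruit the BUB and MAD proteins and the kinase TTK (MPS1), which hold back the anaphase-promoting complex until all chromosomes are attached. Most of these genes are transcribed mainly in dividing cells, and cardiomyocytes of the mouse largely stop dividing in the first days and weeks after birth.

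Genes of this kind are known to carry a cell cycle homology region (CHR), CCAAT boxes and E2F sites near the transcription start. Promoters from RefSeq on GRCm38.p6, running from 250 bases before the start to 50 after it, were at hand for 26 of the 30 genes (29 promoters). On both strands they were searched for TTTGAA or TTCGAA (CHR), CCAAT (the CCAAT box) and TTCCCGC (E2F); TTCGAA reads the same on both strands and was counted once. A CHR was in 17 of the 29 promoters (58.6%) against 19.2% of all 32851 promoters. A CCAAT box was in 72.4% against 37.4%, both motifs were in 48.3% against 7.53%, and the E2F letters were in 20.7% against 4.60%. In 13 of the 29 promoters (44.8%) the CHR lay between 20 bases before and 50 after the start, against 3.56% of all promoters. That window was chosen after the positions were seen. These shares are descriptions, since promoters differ in base composition and a match is not a site in use. Stretches of 8 promoters from 100 bases before the start to 30 after it follow, 5′ to 3′ on the strand of the gene. They show that the same letters stand in genes that were called higher in the mutant-labelled hearts and in genes that were not. Capitals mark CHR, CCAAT and E2F matches on either strand. Cenpm (chr15:82244307-82244436, minus strand), Spag5 (chr11:78301491-78301620, plus), Ttk (chr9:83834589-83834718, plus) and Cenpn (chr8:116921640-116921769, plus) were called. Bub1 (chr2:127831830-127831959, minus), Cenpa (chr5:30666786-30666915, plus), Cenpf (chr1:189688057-189688186, minus) and Bub3 (chr7:131560270-131560399, plus) were not.
Cenpm: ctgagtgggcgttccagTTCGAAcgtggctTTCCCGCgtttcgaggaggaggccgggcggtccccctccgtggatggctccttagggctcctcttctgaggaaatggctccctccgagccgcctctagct
Spag5: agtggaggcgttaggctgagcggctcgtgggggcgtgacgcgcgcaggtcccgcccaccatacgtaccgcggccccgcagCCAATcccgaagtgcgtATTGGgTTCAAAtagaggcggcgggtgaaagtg
Ttk: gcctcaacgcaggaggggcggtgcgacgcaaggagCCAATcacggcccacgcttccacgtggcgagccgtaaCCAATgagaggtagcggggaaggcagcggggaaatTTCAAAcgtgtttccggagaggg
Cenpn: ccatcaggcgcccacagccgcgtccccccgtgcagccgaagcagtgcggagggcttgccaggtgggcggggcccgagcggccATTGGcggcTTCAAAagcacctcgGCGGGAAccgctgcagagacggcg
Bub1: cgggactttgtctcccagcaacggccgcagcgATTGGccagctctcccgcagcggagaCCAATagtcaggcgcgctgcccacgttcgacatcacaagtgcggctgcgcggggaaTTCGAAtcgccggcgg
Cenpa: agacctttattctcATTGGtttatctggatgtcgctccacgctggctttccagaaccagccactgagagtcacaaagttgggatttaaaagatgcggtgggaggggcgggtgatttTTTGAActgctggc
Cenpf: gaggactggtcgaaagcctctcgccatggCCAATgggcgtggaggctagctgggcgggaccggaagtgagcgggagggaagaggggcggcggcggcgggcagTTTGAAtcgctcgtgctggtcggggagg
Bub3: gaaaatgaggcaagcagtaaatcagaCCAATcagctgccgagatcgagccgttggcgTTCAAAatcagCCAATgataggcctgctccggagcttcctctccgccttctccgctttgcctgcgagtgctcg
The CHR of Spag5, Ttk, Cenpf, Bub1 and Cenpa began at bases 4, 8, 3, 15 and 17 after the start, and that of Cenpm 83 bases before it. Of the called genes with a promoter 6 of 12 held a CHR, and of those that did not pass 9 of 13.

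Of the 30 genes, 29 passed the filter on low counts and were tested. Of these 14 rose in the mutant-labelled hearts, 0 fell and 15 did not pass (edgeR quasi-likelihood test, FDR 0.05). The filter asks for enough counts in 2 libraries of any group. Among the called genes, Cenph, Nsl1, Knl1, Ndc80, Cenpi and Zwilch met it only because of the mutant-labelled libraries. Bub1, Ska1, Ska3 and Cenpk, which did not pass the test, met the filter in the same way. A gene that enters in this way can hardly be called lower, so 14 against 0 is no balance of directions. Over all 15283 tested genes 7.37% were called, 2.79% higher and 4.58% lower. The median log2 fold change was 1.54 for the tested members of the list and 0.02 over all tested genes. That median and the counts of genes below include the genes that met the filter only because of the mutant-labelled libraries. All 14 differed by at least 2-fold and 10 by at least 4-fold. In 26 of the 30 genes both mutant-labelled libraries lay above both wild-type libraries, which held for 30.3% of all tested genes. In 1 gene, Zwint, they lay below, which held for 28.7%, and in 3 the groups overlapped. The genes were chosen with earlier results of these data known, so these shares describe the list. In whole tissue, fewer cells of a type and less RNA per cell cannot be told apart. Without mutant-labelled replicate 1 the number of higher calls was 8, and without mutant-labelled replicate 2 it was 9. Without wild type replicates 1 and 2 it was 15 and 19. The higher calls over all genes moved in the same direction, from 426 to 238 and 221 without the mutant-labelled replicates 1 and 2 and to 886 and 2553 without the wild type ones. Scaled by library totals alone, 18 of the genes were called higher; that scaling moved the median of all tested genes to 0.41 and the calls over all genes from 426 higher and 700 lower to 1189 and 206. The 7 genes Cenpm, Ndc80, Nuf2, Cenpe, Zwilch, Spag5 and Knstrn were called in each of the 4 fits that left out 1 library.

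**Figure D1:**
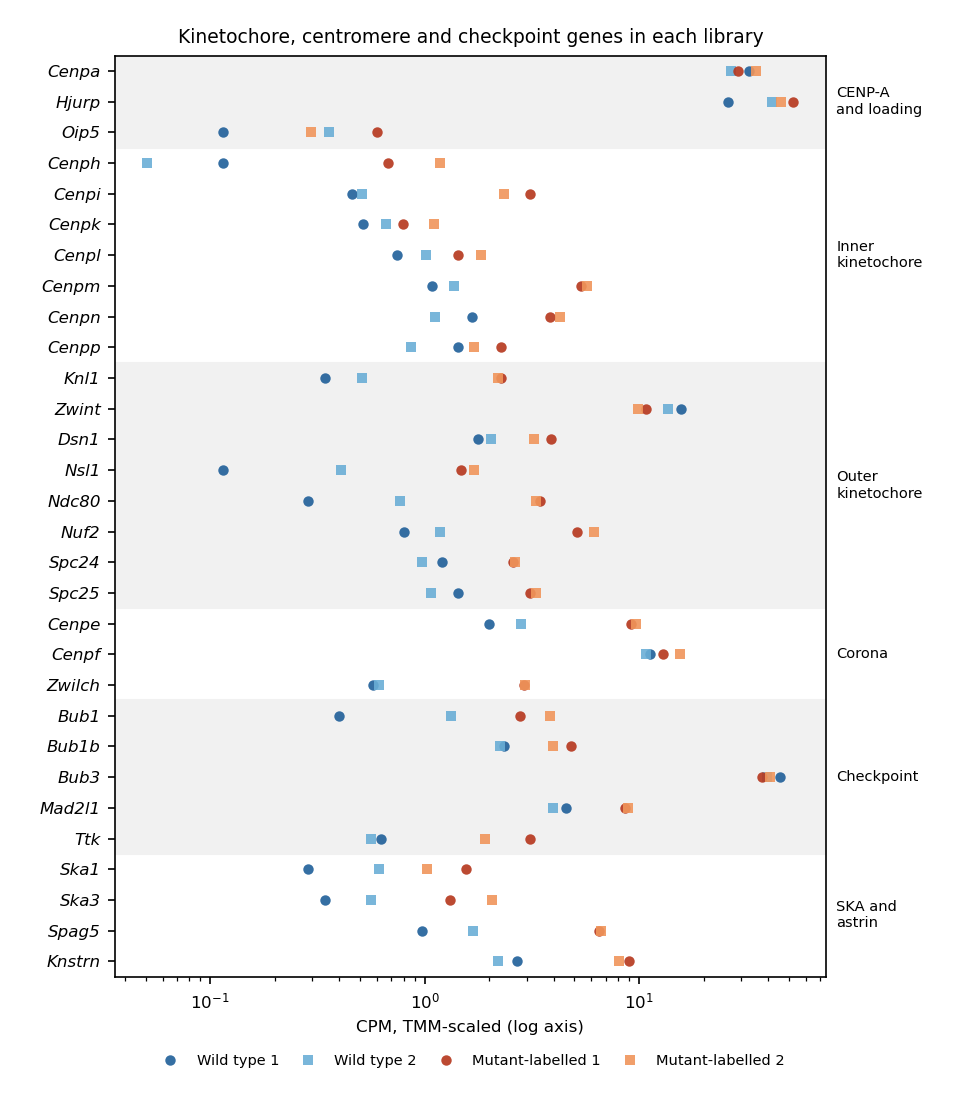
Level of each of the 30 genes in each of the 4 libraries, in TMM-scaled CPM on a log axis, ordered by role. The red and orange points lie to the right of the blue points in 26 genes, while Bub3, Cenpa and Oip5 overlap and Zwint lies the other way.

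The libraries held between 11677604 and 22217442 counts, of which the 30 genes together had 2755 and 3177 in wild type against 5817 and 3221. Every gene had a count in every library. A floor of 3 counts corresponded to 0.135 to 0.257 CPM of the library total, highest in mutant-labelled replicate 2, and floors and intervals on counts cover counting error only. Under 1 CPM in both wild-type libraries were 11 of the 30 genes, and 1, Oip5, was so in both mutant-labelled libraries. Wild type replicate 1 was the lower of its pair in 17 genes and mutant-labelled replicate 1 the lower of its pair in 18. Across genes, the Spearman correlation of transcript length with the distance of a gene from its average level was −0.34 for wild type replicate 1 and −0.00347 to 0.27 in the remaining libraries. Genes are not independent replicates. With an offset for length and GC content in the fit, 19 of the list were called higher, while the higher calls over all genes went from 426 to 1154.

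The 7 inner kinetochore genes all had higher values in both mutant-labelled libraries, and 4 of them rose. Cenpm, a small subunit of the CENP-HIKM complex (GRCm38 chr15:82233779-82244748), was at 1.09 and 1.38 CPM in wild type against 5.38 and 5.74. It rose by a log2 fold change of 2.16 (SE 0.31, edgeR FDR 0.0130), and the pairs lay far apart compared with the distance within each. Cenpi, of the same complex and encoded on X (chrX:134308084-134362639), was at 0.457 and 0.511 CPM against 3.11 and 2.36 and rose by 2.49 (SE 0.43, edgeR FDR 0.0204). The call of Cenpi was lost without mutant-labelled replicate 1. Cenph (chr13:100759674-100775899) had 2 and 1 counts against 17 and 16, a ratio of 10.5 per effective library with an exact 95% counting interval from 3.31 to 53.7. It was called (edgeR FDR 0.0421), but not by limma-voom or without either mutant-labelled library. DESeq2 gave Cenph a log2 fold change of 3.47 and no adjusted p. The wild-type counts of Cenph were below the floor of 3, and without wild type replicate 1 the log2 fold change was 3.95 against 3.37 with all libraries. Cenpk, the fourth subunit of the complex, did not pass. It was at 0.515 and 0.664 CPM against 0.798 and 1.10 (log2 fold change 0.65, 95% interval −0.52 to 1.82, edgeR FDR 0.441), and this interval overlaps those of the other subunits. Cenpn, which reads the CENP-A nucleosome (chr8:116921730-116941507), rose from 1.66 and 1.12 to 3.83 and 4.27 CPM (log2 fold change 1.54, SE 0.34, edgeR FDR 0.0382), with no overlap. The call of Cenpn was lost without either mutant-labelled library. Its partner Cenpl was at 0.743 and 1.021 CPM against 1.44 and 1.84 (0.87, edgeR FDR 0.235). Cenpp was at 1.43 and 0.868 against 2.27 and 1.69 CPM (0.81, edgeR FDR 0.259). For both, the 95% interval of the log2 fold change included 0, with upper ends of 1.86 and 1.80.

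Among the 8 outer kinetochore genes 4 rose, and 1 had a negative difference. Ndc80 and Nuf2 encode the arm of the NDC80 complex that grips the microtubule. Nuf2 (chr1:169497934-169531464) was at 0.801 and 1.18 CPM in wild type against 5.15 and 6.19, and rose by 2.50 (SE 0.34, edgeR FDR 0.0115). Ndc80 (chr17:71496100-71526857) was at 0.286 and 0.766 against 3.47 and 3.31 CPM and rose by 2.65 (SE 0.47, edgeR FDR 0.0228). In both genes the lower mutant-labelled value was more than 4 times the higher wild-type value. Without wild type replicate 2 the log2 fold change of Ndc80 was 3.50. Spc24 and Spc25 encode the other arm, which docks the complex on the kinetochore. Spc24 was at 1.201 and 0.970 against 2.59 and 2.65 CPM (log2 fold change 1.27, SE 0.37, edgeR FDR 0.0736). Spc25 was at 1.43 and 1.07 against 3.11 and 3.31 CPM (1.36, SE 0.35, edgeR FDR 0.0567). Neither passed, although the groups did not overlap in either. Spc24 passed in 6 and Spc25 in 7 of the 15 alternatives. Over these the adjusted p ran from 0.0288 to 0.407 for Spc24 and from 0.00932 to 0.293 for Spc25. Both passed with the length and GC offset (edgeR FDR 0.0323 and 0.0188), and neither did by DESeq2 (adjusted p 0.138 and 0.0775), by limma-voom or without either mutant-labelled library.

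Knl1, the scaffold that recruits the BUB proteins (chr2:119047119-119105501), had 6 and 10 counts against 57 and 30, or 0.343 and 0.511 against 2.27 and 2.21 CPM. It rose by 2.37 (SE 0.45, edgeR FDR 0.0256), with mutant-labelled replicates that nearly coincide; the call was lost without either of them. Nsl1, of the MIS12 complex (chr1:191063012-191086474), had 2 and 8 counts against 37 and 23. It rose by 2.53 (SE 0.60, edgeR FDR 0.0459), the weakest of the 14 calls by adjusted p, and lost the call without wild type replicate 1 and without either mutant-labelled library. Its log2 fold change was 1.91 without wild type replicate 1 and 3.67 without replicate 2. Dsn1, of the same complex, was at 1.77 and 2.04 against 3.87 and 3.24 CPM (log2 fold change 0.90, edgeR FDR 0.113). Zwint, the KNL1 partner that helps to bring in the RZZ complex, went the other way in value. It was at 15.7 and 13.6 CPM in wild type against 10.7 and 9.87 (log2 fold change −0.51, 95% interval −0.98 to −0.04, edgeR FDR 0.151). It did not pass, was called lower only in the fit without wild type replicate 2, and had a difference of −0.11 when libraries were scaled by their totals.

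**Figure D2:**
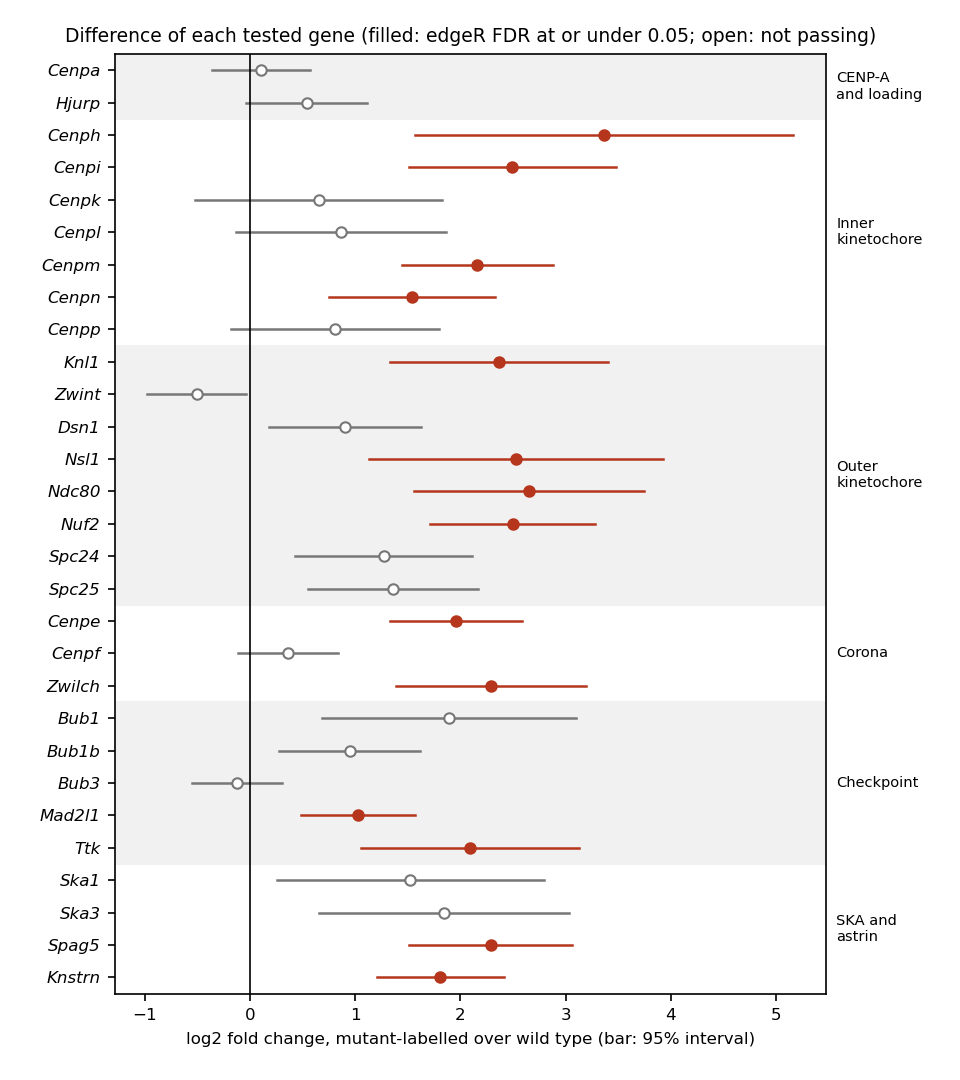
Log2 fold change of the 29 tested genes, mutant-labelled over wild type, with 95% intervals from the edgeR fit; filled points passed an FDR of 0.05. The 14 filled points lie between 1.03 (Mad2l1) and 3.37 (Cenph), and the intervals of Bub3 and Cenpa are short and span 0.

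In the fibrous corona, the outermost mesh that forms on unattached kinetochores, 2 of 3 genes rose. Cenpe, a kinesin that carries chromosomes along microtubules (chr3:135212537-135273611), was at 2.002 and 2.81 CPM against 9.13 and 9.72 and rose by 1.96 (SE 0.27, edgeR FDR 0.0120). Zwilch, of the RZZ complex (chr9:64137144-64173104), was at 0.572 and 0.613 against 2.91 and 2.95 CPM. Zwilch rose by 2.29 (SE 0.39, edgeR FDR 0.0203), with replicates of each group close together. Cenpf, a large coiled-coil protein of the corona and nuclear matrix, did not pass, at 11.3 and 10.7 against 12.9 and 15.5 CPM (log2 fold change 0.36, 95% interval −0.11 to 0.84, edgeR FDR 0.290). Its interval leaves out a 2-fold difference in either direction.

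The SKA complex and the astrin–SKAP pair stabilise the hold of kinetochores on microtubules. Spag5, which encodes astrin (chr11:78301529-78322457), was at 0.972 and 1.69 CPM against 6.50 and 6.63 and rose by 2.29 (SE 0.34, edgeR FDR 0.0139). Knstrn, which encodes its partner SKAP (chr2:118814003-118853957), was at 2.69 and 2.20 against 8.97 and 8.10 CPM and rose by 1.81 (SE 0.26, edgeR FDR 0.0135). Both partners were thus called, and both kept the call in all 15 alternatives. Of these, 1 was the main fit read at an FDR of 0.10, where no call can be lost. Ska1 was at 0.286 and 0.613 against 1.56 and 1.03 CPM (1.52, SE 0.55, edgeR FDR 0.123) and Ska3 at 0.343 and 0.562 against 1.32 and 2.06 CPM (1.84, SE 0.51, edgeR FDR 0.0680). Ska1 stood at 2.15 and was called without wild type replicate 2. Neither passed in the main fit, at 5 to 12 counts in each wild-type library. With all libraries kept, Ska3 passed in some alternatives, such as library totals and the length and GC offset (edgeR FDR 0.0485 and 0.0352). It did not pass by DESeq2 or limma-voom (adjusted p 0.0907 and 0.0819).

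Of the 5 checkpoint genes 2 rose. Ttk, the kinase that starts the checkpoint signal (chr9:83834689-83872389), had 11 counts in each wild-type library against 78 and 26, or 0.629 and 0.562 against 3.11 and 1.91 CPM. It rose by 2.09 (SE 0.45, edgeR FDR 0.0345) and lost the call without mutant-labelled replicate 1. Mad2l1, which encodes MAD2, the protein that binds and blocks CDC20 (chr6:66535390-66547220), was at 4.58 and 3.98 against 8.57 and 8.91 CPM. It rose by 1.03 (SE 0.23, edgeR FDR 0.0402), the smallest of the 14 rises, and lost the call without either mutant-labelled library. Bub1 and Bub1b encode the kinase BUB1 and its relative BUBR1. Bub1 had 7 and 26 counts against 70 and 52 (log2 fold change 1.89, SE 0.52, edgeR FDR 0.0665). The wild-type libraries differed from each other more than 3-fold in CPM (0.400 and 1.33), and the gene was called in 8 of the 15 alternatives. Its log2 fold change was 1.27 without wild type replicate 1 and 2.97 without replicate 2. Bub1b was at 2.35 and 2.25 against 4.83 and 3.98 CPM (0.95, SE 0.29, edgeR FDR 0.0862). It passed with library totals and with the length and GC offset (edgeR FDR 0.042 and 0.040), but not by DESeq2 or limma-voom (adjusted p 0.167 and 0.083). Bub3, the shared partner of both proteins, overlapped between the groups, at 45.2 and 39.6 against 37.4 and 40.6 CPM. Its log2 fold change was −0.12 (95% interval −0.55 to 0.31, edgeR FDR 0.713) and 0.28 with library totals.

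The 3 genes of CENP-A and its loading had no call in the main fit. Cenpa, the centromeric histone itself, was at 32.4 and 26.97 CPM against 28.8 and 35.0, so the groups overlapped (log2 fold change 0.10, 95% interval −0.36 to 0.57, edgeR FDR 0.780). Hjurp, the CENP-A chaperone, was at 26.0 and 41.8 against 52.4 and 46.0 CPM (0.54, 95% interval −0.04 to 1.12, edgeR FDR 0.209), and the wild-type libraries lay farther apart than the group means. The log2 fold change of Hjurp was 0.22 without wild type replicate 1 and 0.88 without replicate 2. Oip5, which encodes MIS18β, a licensing factor for CENP-A loading, had 2 and 7 counts against 15 and 4. Oip5 was too low for the test, and its groups overlapped.

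The genes with the most reads were not called in the main fit. Hjurp, Bub3, Cenpa, Cenpf and Zwint had the highest mean CPM over all libraries, and 0 of these 5 was called, with log2 fold changes from −0.51 to 0.54. Over all tested genes 7.37% were called, so 0 of 5 does not set these genes apart from other genes. Of the other 25 genes 24 were tested and 14 were called, with log2 fold changes from 0.65 to 3.37 and a median of 1.87. These include the genes that met the filter on low counts only because of the mutant-labelled libraries. Summed, the 5 abundant genes were at 131 and 133 CPM in wild type against 142 and 147. The other 25 were at 26.9 and 29.5 against 89.7 and 90.2 CPM. The 5 made up 82.9% and 81.8% of the summed CPM of the 30 genes in wild type and 61.3% and 62.0% in the other group. This division was made after the values were seen. Scaled by length, in CPM per kb of annotated exon, the wild-type means ran from 0.0464 (Cenph) to 6.05 (Bub3). Bub3, Cenpa, Hjurp and Zwint stood at 6.05, 5.07, 4.07 and 3.31, and the next was Cenpm at 0.762. In the mutant-labelled hearts Cenpm stood at 3.44 CPM per kb, above Zwint at 2.32, and Hjurp, Bub3 and Cenpa at 5.91, 5.57 and 5.44. The order of those 3 is within their spread over libraries.

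**Figure D3:**
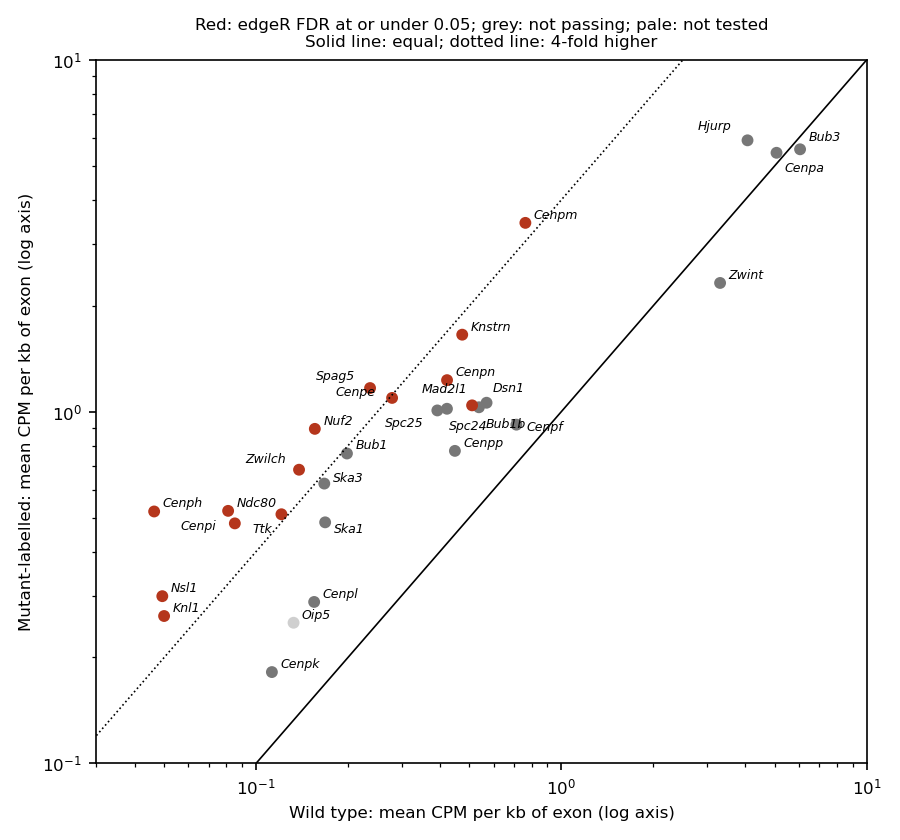
Mean level of each of the 30 genes per kb of annotated exon, wild type on x and mutant-labelled on y, both on log axes; each point is a mean of 2 libraries. Bub3 and Cenpa lie near the line of equal levels and Zwint below it, while 10 red points lie above or at the line of a 4-fold difference and the low genes spread upward from the line of equal levels.

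Within most complexes the subunits had values that lay far apart. The genes were grouped with further subunits after the values were seen, using textbook assignments. Astrin–SKAP (1.81 and 2.29) had both subunits called, and CENP-HIKM had 3 of 4. In the MIS12 complex Nsl1 stood at 2.53, Dsn1 at 0.90, Mis12 at 0.46 and Pmf1 at −0.01. Of the RZZ complex and its adaptor Spindly, Zwilch stood at 2.29, Spdl1 at 1.69, Kntc1 at 1.64 and Zw10 at 0.26. In the SKA complex Ska3 and Ska1 stood at 1.84 and 1.52 and Ska2 at −0.12. None of the 4 tested subunits of CENP-TWSX was called (0.04 to 1.77), nor was any of the 5 of CENP-OPQUR (−0.41 to 1.11), to which Cenpp belongs. Over all tested genes 7.37% were called, so a lack of calls among so few subunits sets neither complex apart. Cenpt and Cenps of CENP-TWSX stood at an edgeR FDR of 0.0621 and 0.0736. The differences between subunits were not tested across these complexes.

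**Figure D4:**
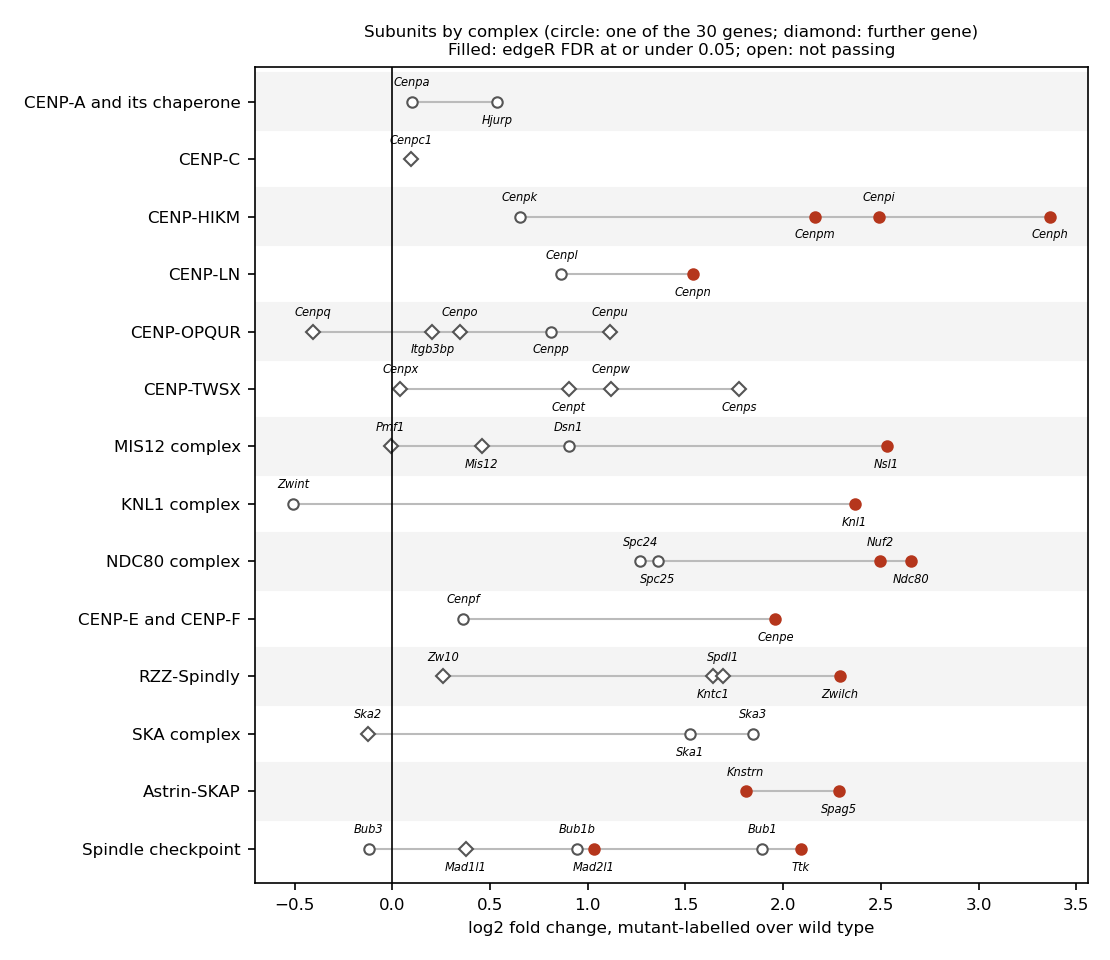
Log2 fold change of tested subunits, mutant-labelled over wild type, for the complexes listed at the left; circles are among the 30 genes, diamonds are further genes, and filled points passed an edgeR FDR of 0.05. Subunits spread by 2.87 in the KNL1 complex, by 2.71 in CENP-HIKM and by 0.48 in astrin–SKAP.

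For 4 complexes the balance of subunits was measured as a share of counts, which does not depend on the scaling of libraries. It can still depend on a length bias, and the correlation with transcript length was −0.34 and 0.27 in the wild-type libraries. The longest transcripts of Ndc80 and Nuf2 have 3847 and 3888 bases against 1696 and 1869 for Spc24 and Spc25. Knl1 and Zwint have 7800 and 2676, and Cenpe and Cenpf 7910 and 11130. The part of length in these shares was not tested. Ndc80 plus Nuf2 made up 19 of 65 and 38 of 78 counts of the NDC80 complex in wild type, or 29.2% and 48.7%, with exact Clopper-Pearson 95% intervals of 18.6% to 41.8% and 37.2% to 60.3%. In the mutant-labelled pair it was 60.2% and 61.4% (intervals 54.9% to 65.3% and 54.5% to 68.1%). Wild type replicate 2 thus overlapped the mutant-labelled libraries within counting error, and replicate 1 did not. Knl1 made up 2.14% and 3.61% of Knl1 plus Zwint counts in wild type against 17.5% and 18.3%. Cenpe made up 15.1% and 20.8% of Cenpe plus Cenpf counts against 41.5% and 38.6%. Bub1 plus Bub1b made up 5.72% and 8.28% of the counts of Bub1, Bub1b and Bub3 against 16.9% and 16.1%. The groups did not overlap in any of these 4 shares, chosen after the values were seen. For each, 2 libraries against 2 gave p = 0.333, raw and adjusted over the 4, in a two-sided exact permutation test, and no smaller p is possible in this design.

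Of 58 further genes of the kinetochore, the anaphase-promoting complex and cohesin, all tested, 5 rose (8.62%, against 2.79% of all tested genes), 0 fell and 53 did not pass, with a median log2 fold change of 0.11. Among the inner kinetochore and loading genes the abundant Cenpb, which binds centromeric repeats, and Cenpx stood at −0.04 and 0.04. In 7 of these 12 genes both mutant-labelled libraries lay above wild type and in 0 below, against 30.3% and 28.7% of all tested genes. Among 12 outer kinetochore, corona and checkpoint genes 0 were called, and the abundant microtubule-binding Clasp1 and Ckap5 stood at −0.19 and −0.23. Values of these 12 ran from −0.36 to 1.80, with both mutant-labelled libraries above wild type in 6 and below in 2. Among 19 genes of the anaphase-promoting complex and its partners 2 rose. Ube2c, its ubiquitin-conjugating enzyme, rose by 1.92 (edgeR FDR 0.00769), and Cdc20, the activator that the checkpoint inhibits, rose from 4.58 and 4.19 to 10.7 and 9.87 CPM (1.23, SE 0.23, edgeR FDR 0.0244). The subunits Anapc5 and Anapc11 stood at 0.05 and −0.20. Among 15 genes of cohesin and separase 2 rose. Espl1, separase, rose from 1.77 and 1.99 to 7.46 and 7.51 CPM (1.99, SE 0.27, edgeR FDR 0.0109), and Esco2, a cohesin acetyltransferase, by 2.41 (edgeR FDR 0.0284). Esco2 passed the filter on low counts only because of the mutant-labelled libraries. Rad21, a cohesin ring subunit, stood at −0.07. Pttg1, securin, was at 90.3 and 58.5 against 44.6 and 47.4 CPM (−0.69, edgeR FDR 0.113). The higher calls among the 58 were 10 with library totals, and 7, 12, 4 and 2 without wild type replicates 1 and 2 and mutant-labelled replicates 1 and 2 in turn. Of 8 other mitosis genes all 8 rose, with log2 fold changes from 1.58 to 2.36. Summed they were at 24.6 and 35.0 CPM in wild type against 109 and 112. With the smallest adjusted p among them, Top2a, Ccnb1, Cdk1, Mki67 and Plk1 stood at 1.85, 2.36, 2.09, 1.97 and 1.69.

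Markers of several heart cell types differed in summed level between the groups. Over all tested genes, both mutant-labelled libraries lay above wild type in 30.3% and below in 28.7%. Of all tested genes 2.79% were called higher and 4.58% lower. The counts per list of markers are to be read beside these shares. The 8 cardiomyocyte markers were at high levels in every library. They summed to 47150 and 48110 CPM in wild type against 26820 and 27030, with both mutant-labelled libraries lower in 8 of 8 genes and 1 (Pln) called lower. The 8 fibroblast markers summed to 3375 and 3903 against 5754 and 6106 CPM, with the groups apart in 7 and 1 (Postn) called higher. The 8 endothelial markers summed to 1054 and 1347 against 1812 and 1583 CPM, with 6 apart and 1 (Cldn5) called higher. Mural markers summed to 2133 and 2478 against 2517 and 2642 CPM and macrophage markers to 192 and 158 against 185 and 208, with 0 of 8 called in each. Epicardial markers summed to 63.3 and 69.3 against 61.5 and 35.1 CPM. Of these 8, 7 had a negative log2 fold change (median −0.84 over the 8), 5 had both mutant-labelled libraries below wild type, and 1 (Wt1) was called higher. Schwann cell markers summed to 35.7 and 34.3 against 39.2 and 42.6 CPM, with both mutant-labelled libraries above wild type in 4 of 8, below in 1, and 1 (Ngfr) called higher. The 7 erythroid markers with a value summed to 711 and 508 against 540 and 864 CPM, with 0 called. Lymphocyte markers summed to 2.69 and 3.06 against 4.39 and 5.96 CPM, with Cd3d, Cd3e and Nkg7 at 0 counts in at least 1 library each. The part of these shifts in the rise of the kinetochore genes was not tested.

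Reads shared with other genes could touch a few values. Processed copies at least 90% identical over at least 50% of their length were found for Bub3, Cenpe, Cenpf, Mad2l1, Ndc80, Nuf2 and Zwint. All had at most 2 counts in any library except 2700099C18Rik, 92.7% identical to Ndc80, which had 2 and 15 counts in wild type against 45 and 36. How reads were divided between Ndc80 and this copy was not given in the sources used here, so the value of Ndc80 is uncertain. Exons of Cenpp, Oip5, Zwilch, Cenpk, Ska3 and Knstrn overlap genes on the other strand over 12.3%, 9.67%, 5.93%, 4.45%, 2.88% and 2.38% of their length. For Cenpp a further 0.27% overlaps Aspn, a gene with 1378 to 2903 counts per library. Sap18, opposite Ska3, had 650 to 1141 counts per library. Nusap1, opposite Oip5, had 49 and 64 counts in wild type against 252 and 131. Lctl, opposite Zwilch, had 0 to 6. Strand-specific counting was neither stated nor denied in those sources.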

How the data were processed

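RNA-seq of mouse heart was deposited as a table of raw counts per gene. The tools FastQC and HISAT2 and the build mm10 come from the submitters' processing notes without their roles; versions, the counting program, its annotation and the treatment of strand and multiply mapped reads were not given in the sources used here. Those counts were used as the authors deposited them; no column was left out. Identifiers were named with GENCODE M21 (54723 of 54752), built on GRCm38 as mm10 is; gene coordinates count from 1. Genes passing filterByExpr (15283) got TMM factors and were tested in edgeR 4.0.16 under R 4.3.3 (glmQLFit, glmQLFTest; genotype the only term, 2 residual degrees of freedom, common biological coefficient of variation 0.186), with Benjamini-Hochberg adjustment over all genes (FDR) and a threshold of 0.05. The SE is the log2 fold change divided by the square root of F, and 95% intervals use the moderated degrees of freedom. For genes reaching 10 counts in a pair, chi-square over its degrees of freedom was 51.1 within wild type and 11.5 within the mutant-labelled pair, so no library repeated another within counting error. Copies were found with BLAST+ 2.17.0. DESeq2 1.42.0, limma-voom (limma 3.58.1) and other settings were alternatives. Lists and members were chosen with earlier results of these data known. The rule named all 30 members, and of each further list up to 5 called genes by adjusted p and the 2 most abundant that did not pass; other genes were chosen after their values were seen, and 1 called further gene is not reported here. The edgeR fit was tested on counts simulated with known changes and no length bias between libraries. The other steps were not tested on simulated data.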

Additional observations from a re-analysis of the deposited data

How the results depend on the processing

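Over 15 alternatives, all 14 called members of the list kept a positive difference and 7 kept their call throughout. Cenph was tested in 14 of the 15 only, as it fell under the filter of at least 1 CPM in at least 2 libraries. The alternative at an FDR of 0.10 was the main fit itself, where no call or sign can be lost. Reversals were Bub3 (0.28 with library totals) and Cenpa (from −0.067 without wild type replicate 2 and −0.05 without mutant-labelled replicate 2 to 0.23 without mutant-labelled replicate 1, and 0.51 with library totals), neither called; the cause was not tested. The median of 1.54 was 1.94 with library totals, 1.64 with the length and GC offset and 1.65 with that offset and a block for the replicate number. Library totals moved the median of all tested genes from 0.02 to 0.41 and the split of all calls from 426 higher and 700 lower to 1189 and 206. The 5 higher calls among further genes were 10 with library totals, 12 with no filter (1 lower), 12 at an FDR of 0.10, 12 with the length and GC offset and 12 with offset and block. The 1126 calls over all genes were 2630 with no filter, 1705 with DESeq2, 2488 at an FDR of 0.10, 2745 with the offset and 2776 with offset and block; more genes were tested with no filter (26469), and otherwise the cause was not tested. Leaving out 1 library gave 8 to 19 higher and 0 to 1 lower members, medians from 1.47 to 1.79, 2 to 12 higher and 0 to 5 lower further genes, and 377 to 5679 calls in all; the lone library of a group is then assumed to vary like the other pair. Replicate numbers pair nothing in the labels: deviations of same-numbered libraries correlated by −0.247, and the replicate block alone gave 15 higher members and 1222 calls in all. Of the 30 genes, 11 were under 1 CPM in both wild-type libraries; counts this low limit precision, and a p that missed the threshold does not show equal levels.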
